A study of Caenorhabditis elegans with 78 samples.

Results

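Histone H3 trimethylated at lysine 4 (H3K4me3) was compared between 26 °C and 20 °C in first-stage (L1) larvae of Caenorhabditis elegans that carry the mutation lin-15B(n744). The peaks of the 2 lists at 26 °C and the 2 lists at 20 °C were merged wherever they overlapped, which gave 8987 regions. A region was called temperature-specific when both lists of a temperature held a peak in it and neither list of the other temperature did. This rule chose 165 regions, of which 122 were 26 °C-specific (1.36% of all regions) and 43 were 20 °C-specific (0.478%). These shares are the rule's own outcome and were not tested.

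The study profiled histone marks by chromatin immunoprecipitation and sequencing (ChIP-seq) in larvae of lin-15B(n744), of 2 other mutants, lin-35(n745) and lin-37(n758), and of the wild type (N2), at 26 °C and at 20 °C. For 26 °C, cultures were moved to the higher temperature at the fourth larval stage of the parents, and embryos from bleached adults were kept at 26 °C without food for 14 hours; for 20 °C, parents and embryos stayed at 20 °C throughout. Both lin-15B groups carried the n744 allele, so the temperature comparison is within the mutant, and the peak lists contain nothing that checks the mutation itself. Whole larvae were frozen and ground, so that fewer cells with a mark and less of the mark per cell cannot be told apart.

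H3K4me3 is deposited around the starts of active and poised genes and is the usual chromatin mark of promoters. H3K9me2, dimethylation at lysine 9 of the same histone, marks repressed chromatin and in worms is concentrated on the arms of the autosomes, which are rich in repeats and poor in broadly expressed genes. LIN-15B is a THAP-domain DNA-binding protein of the synMuv B class, as are LIN-35, the worm's retinoblastoma-like protein, and LIN-37, a subunit of the DREAM repressor complex. Proteins of this class keep germline genes repressed in somatic cells of the larva, and several of their mutants arrest as larvae at high temperature.

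The 4 lists differed more by replicate than by temperature. They held 5877 and 8011 peaks at 26 °C, against 5529 and 8412 peaks at 20 °C, for replicates 1 and 2 of each. Covered length was 4.67 and 7.61 Mb at 26 °C, against 4.14 and 8.33 Mb at 20 °C. Replicate 2 was the longer list at each temperature, and the groups overlapped. The difference in mean peak number, 26 °C minus 20 °C, was −26.5 (exact permutation p = 1.0, two-sided, n = 2 each), and 0.333 is the smallest p that 6 arrangements allow. The Jaccard index, shared length over total length, was 0.758 between the replicates 2 of the 2 temperatures and 0.658 between the replicates 1, but 0.592 within 26 °C and 0.485 within 20 °C. Of the 16 H3K4me3 lists in 4 genotypes, 8 carry a common code in their names, which is in replicate 2 of both temperatures in lin-15B and in 1 list per temperature in each other genotype. The peak names in the 26 °C replicate 2 list carry the replicate number 3, where the label gives 2; replicates are numbered here by the labels. The labels do not say whether replicates were separate cultures, so p-values measure the spread between these libraries only.

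**Figure D1:**
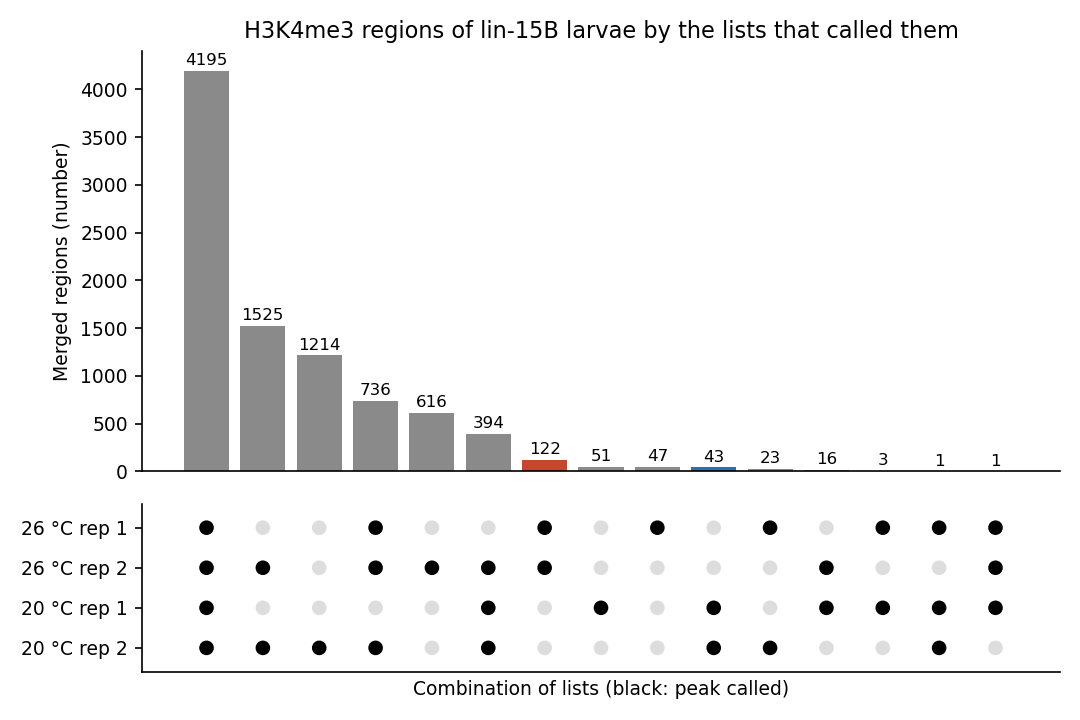
Number of merged H3K4me3 regions (y axis) for each combination of the 4 lin-15B lists that called them (black dots). Red marks the 122 regions specific to 26 °C and blue the 43 specific to 20 °C; the 1525 regions called only in replicate 2 of both temperatures outnumber both.

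The combinations of calls show the same split by replicate. All 4 lists called 4195 regions, and replicate 2 of both temperatures alone called 1525. Replicate 2 alone called a further 616 regions at 26 °C and 1214 at 20 °C. Only 3 regions were called in replicate 1 of both temperatures and in neither replicate 2. The count of members therefore depended on each list. Without 26 °C replicate 1 the rule called 8.31% of 8958 merged regions specific to 26 °C and 0.491% specific to 20 °C. Without 26 °C replicate 2 the shares were 2.22% (191 regions) for 26 °C and 5.28% (455) for 20 °C. Without 20 °C replicate 1 they were 1.37% (123) for 26 °C and 14.0% (1257) for 20 °C, and without 20 °C replicate 2 they were 11% (897) for 26 °C and 1.48% (121) for 20 °C. Leaving out a list relaxes the rule, and the sets obtained from the other 3 lists are called 3-list sets.

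The members were short peaks of low rank. Regions specific to 26 °C had a median width of 489 bp (251 to 2331 bp), and regions specific to 20 °C had a median of 445 bp (277 to 1190 bp), against 776 bp over all regions and 1262 bp for regions called in all 4 lists. Below 500 bp lay 51.6% of the 26 °C-specific and 62.8% of the 20 °C-specific regions. The share was 30.1% of all regions, 41.6% of regions called only in replicate 2 of both temperatures, and 2.0% of regions called in every list. Fold enrichment at the peak summit is the authors' own value for each peak and is used here to describe and rank peaks within a list. The 26 °C-specific regions had a median fold of 4.32 in replicate 1 (2.27 to 11.3) and 2.75 in replicate 2 (1.61 to 8.66), which is the 25.0th and 32.8th percentile of those lists. The 20 °C-specific regions had a median fold of 2.64 in replicate 1 (1.92 to 4.56) and 2.27 in replicate 2 (1.49 to 5.64), at the 12.9th and 22nd percentile. Regions called in all 4 lists had medians of 14.2 and 12.0 at 26 °C and of 7.84 and 13.4 at 20 °C. Most members thus ranked in the lower part of each list that called them: 9 and 14 of the 122 ranked above the 50th percentile in the 26 °C lists, and 0 and 2 of the 43 in the 20 °C lists. Regions called only in replicate 2 of both temperatures, which 2 lists also missed, had a median width of 551 bp. Their median rank was the 20.4th percentile at 26 °C and the 26.8th at 20 °C. The rule takes regions missed by 2 lists. Low rank and short width beside regions called in all 4 lists thus follow in part from it.

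Values near the threshold describe how close the choice was. The least significant 26 °C-specific peak had a −log10 q of 2.06 in replicate 1 and 4.05 in replicate 2. Just outside the 26 °C-specific class were 736 regions called in both 26 °C lists and also in 20 °C replicate 2, where they had a median fold of 3.13 and a median −log10 q of 34.7, and 1 region also called in 20 °C replicate 1. Just outside the 20 °C-specific class were 394 regions also called in 26 °C replicate 2, with a median fold of 2.76, and 1 also called in 26 °C replicate 1. Most near-members were therefore kept out by the longer replicate 2 list of the other temperature.

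The 26 °C-specific regions lay mainly on autosome arms. Arms, taken as the 30% of each autosome nearest either end, held 104 of the 122 (85.2%), centres held 17 (13.9%) and X held 1 (0.82%). Over all regions these shares were 44.2%, 40.2% and 15.6%, and for the regions called only in replicate 2 of both temperatures 39.0%, 42.5% and 18.6%. Chromosome I held 37 of the 26 °C-specific regions, II 26, III 24, IV 14 and V 20. Of all regions these chromosomes held 1664, 1427, 1596, 1436 and 1463. Left and right arms both contributed, with 22 and 11 on I, 15 and 9 on II, 13 and 9 on III, 8 and 3 on IV, and 6 and 8 on V. On each autosome the arms held more of these regions than the centre, which held at most 6, on V.

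The 20 °C-specific regions were placed differently. Arms held 20 of the 43 (46.5%), centres 11 (25.6%) and X 12 (27.9%), so X held 12 regions specific to 20 °C beside 1 specific to 26 °C. The arm share of the 26 °C-specific regions was 59.1% in the 3-list set without 26 °C replicate 1 and 56.3% without 20 °C replicate 2. It was 79.6% without 26 °C replicate 2 and 85.4% without 20 °C replicate 1. With the −log10 q of at least 5 it was 86.8%, and with equal peak numbers per list it was 77.5%. The X share of the 20 °C-specific regions ranged over 20.2% to 27.3% with a list left out.

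**Figure D2:**
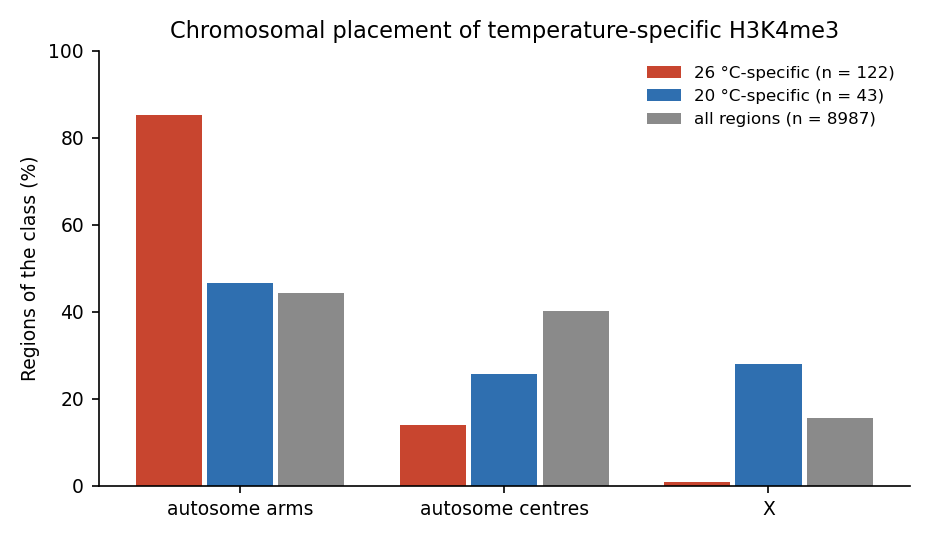
Share of the regions of each class (y axis, %) on autosome arms, autosome centres and X. Arms hold 85.2% of the 26 °C-specific, 46.5% of the 20 °C-specific and 44.2% of all regions, and X holds 0.82%, 27.9% and 15.6%.

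Most members lay away from the regions called in all lists. A 26 °C-specific region lay a median of 5776 bp from the nearest region called in all 4 lists, and 15.6% lay within 1000 bp of such a region. For 20 °C-specific regions the median was 9002 bp and the share 16.3%. Regions called only in replicate 2 of both temperatures had 5779 bp and 16.8%, close to the 26 °C-specific values. Of 121 autosomal 26 °C-specific regions, 20 had another within 10000 bp and 11 had another within 1000 bp. Whether these counts differ from those of regions spaced at random was not tested. A run of 3 on chromosome II is described among the widest regions.

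H3K9me2 peaks overlapped many of the 26 °C-specific regions in separate H3K9me2 libraries, which the rule did not use. In lin-15B larvae 43.4% and 41.8% of them overlapped an H3K9me2 peak at 26 °C, against 41.8% and 52.5% at 20 °C, for replicates 1 and 2. In wild-type larvae the shares were 63.9% and 48.4% at 26 °C, against 60.7% and 68.9% at 20 °C. Over all H3K4me3 regions the lin-15B lists gave 22.5% and 22.2% at 26 °C, against 14.6% and 25.9% at 20 °C, and the wild-type lists gave 28.6% and 22.5% at 26 °C, against 24.2% and 27.3% at 20 °C. The share among 26 °C-specific regions was above the share of all regions in each of the 8 lists. The lists of the 2 temperatures overlapped in lin-15B and in wild type, so that these shares were not separated by temperature. H3K9me2 in both 26 °C lists and neither 20 °C list of lin-15B was found at 0 of the 122 regions, against 1.39% of all regions, and the reverse at 1 (0.82%), against 0.501% of all regions. In wild type the first pattern was found at 0 of the 122, against 0.979% of all regions. The reverse, both 20 °C lists and neither 26 °C list, was found at 6 (4.92%, against 0.912%).

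The share was also compared within each zone. On arms alone, the mean over the 4 lin-15B H3K9me2 lists was 52.2% of the 104 26 °C-specific regions (49.0% to 59.6%), against 36.8% of all arm regions. The mean over the 4 wild-type lists was 69.2% (55.8% to 77.9%), against 45.7% of all arm regions. In autosome centres 2.94% of the 17 regions overlapped H3K9me2 in lin-15B, against 6.44% of all centre regions, and 10.3% did in wild type, against 11% of all centre regions. The members exceeded all regions on arms and not in centres.

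Region by region, the 2 genotypes shared most of this H3K9me2. All 4 wild-type lists held H3K9me2 at 54 of the 122 regions (44.3%, against 19.1% of all regions), and none did at 32. Of those 54, 41 (75.9%) also had it in all 4 lin-15B lists and 3 (5.56%) in none; over all regions with H3K9me2 in all 4 wild-type lists the shares were 57.2% and 13% of 1718. H3K9me2 in all 4 lin-15B lists was found at 42 of the 122 (34.4%, against 12.0% of all regions). Peak lists of the 2 marks come from separate immunoprecipitations of whole larvae, so whether both marks sit in the same cells was not tested. In the 3-list sets the mean H3K9me2 share in lin-15B was 25.3% without 26 °C replicate 1 and 24.7% without 20 °C replicate 2, against 44.9% with all lists. In wild type it was 29.3% without 26 °C replicate 1 and 33.7% without 20 °C replicate 2, against 60.5% with all lists. Over all 8987 regions the lin-15B lists gave 14.6% to 25.9% and the wild-type mean was 25.6%, so these 2 sets lay near all regions. Without 26 °C replicate 2 and without 20 °C replicate 1 the share was 36.9% and 45.1% in lin-15B, and 47.8% and 60.0% in wild type.

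The 20 °C-specific regions showed another H3K9me2 pattern. In lin-15B 44.2% and 37% overlapped H3K9me2 at 26 °C, against 23.3% and 46.5% at 20 °C. In wild type 30.2% and 30.2% did at 26 °C, against 27.9% and 18.6% at 20 °C. The wild-type shares lay near those of all regions, and the lin-15B shares lay above them in each list. At the 12 regions on X the mean over 4 lists was 43.8% in lin-15B (16.7% to 58.3%) and 8.33% in wild type. Over all regions on X the mean was 15.6% in lin-15B and 6.57% in wild type, so that all X regions differed between the genotypes in the same direction, and the wild-type share of the members was near that of all X regions. The lin-15B list at 20 °C replicate 1 was called at a looser q cutoff (0.05) than the other H3K9me2 lists used here (0.01) and yet was the shortest of them, with 8273 peaks. In the 3-list sets, the lin-15B mean share of 37.8% became 23.4% without 26 °C replicate 2 and 17.9% without 20 °C replicate 1, and the wild-type mean of 26.7% became 15.5% without 20 °C replicate 1.

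**Figure D3:**
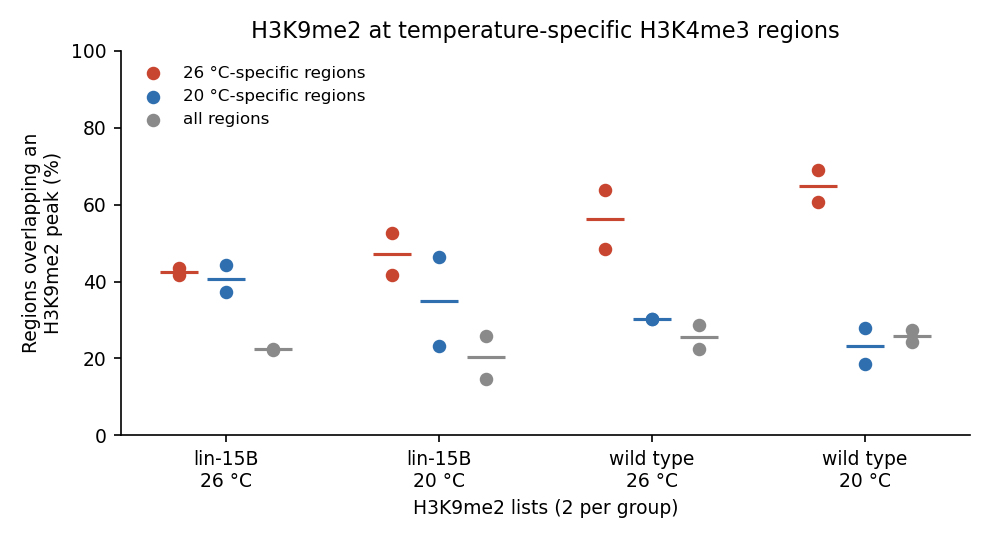
Share of 26 °C-specific, 20 °C-specific and all H3K4me3 regions of lin-15B (y axis, %) that overlap an H3K9me2 peak in each H3K9me2 list of lin-15B and wild type. Points are single lists and bars their means; the red points of the 26 °C-specific regions, 41.8% to 68.9%, lie above the grey points of all regions in every group.

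The other genotypes, whose lists the rule did not use, give a separate reading of the same regions. Of the 122 26 °C-specific regions, the lin-35 lists called 26.2% and 48.4% at 26 °C, against 10.7% and 4.1% at 20 °C. The lin-37 lists called 57.4% and 37.7% at 26 °C, against 4.92% and 2.46% at 20 °C. The wild-type lists called 26.2% and 22.1% at 26 °C, against 0.82% and 1.64% at 20 °C. In each genotype both 26 °C lists called more of these regions than either 20 °C list. The mean over genotypes was 36.3% at 26 °C (22.1% to 57.4% over 6 lists) and 4.1% at 20 °C (0.82% to 10.7%). Over all 8987 regions the means were 64.4% at 26 °C and 57.7% at 20 °C. Over the regions called only in replicate 2 of both temperatures they were 43.8% and 33.4%. The difference among the members, 32.2 percentage points, was larger than either of these shifts. It was present both in the lists with the common code (44% at 26 °C, 4.92% at 20 °C) and in the others (28.7% at 26 °C, 3.28% at 20 °C). It was 16.8 percentage points in the 3-list set without lin-15B 26 °C replicate 1.

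The same rule applied inside each other genotype found 22 of the 122 regions specific to 26 °C in lin-35 (18%, against 2.28% of all regions), 41 in lin-37 (33.6%, against 7.38%) and 22 in wild type (18%, against 4.26%). The reverse pattern, both 20 °C lists and neither 26 °C list, was met by 0 of them in lin-35, against 1.76% of all regions, by 3 in lin-37 (2.46%, against 1.07%) and by 0 in wild type, against 0.167%. The rule was met in all 3 other genotypes by 10 regions, in 2 by 16, in 1 by 23 and in none by 73. Across the 12 lists, 80 regions (65.6%, against 28.8% of all regions) had more calls at 26 °C than at 20 °C, and 7 had fewer (5.74%, against 11.5%). Of the regions called only in replicate 2 of both temperatures, 49.2% had more calls at 26 °C and 23.7% had fewer. No list of the 12 called 33 of the members (27%, against 12.1% of all regions). No wild-type list called 86 of the 122 (70.5%, against 24.3% of all regions). Most 26 °C-specific regions of lin-15B were therefore called in more 26 °C than 20 °C lists of the other genotypes, and most were called in no wild-type list.

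The 20 °C-specific regions leaned toward the 20 °C lists, but not in every genotype. The lin-35 lists called 9.3% and 20.9% of the 43 at 26 °C, against 55.8% and 30.2% at 20 °C. The lin-37 lists called 11.6% and 27.9% at 26 °C, against 37% and 14.0% at 20 °C. The wild-type lists called 48.8% and 9.3% at 26 °C, against 11.6% and 30.2% at 20 °C. The temperatures separated in lin-35 and overlapped in lin-37 and wild type. The 20 °C rule was met by 8 in lin-35 (18.6%, against 1.76% of all regions), 2 in lin-37 (4.65%, against 1.07%) and 0 in wild type, where 0.167% of all regions met it. Across the 12 lists, 22 of the 43 had fewer calls at 26 °C than at 20 °C. That was 51.2%, against 11.5% of all regions and 23.7% of regions called only in replicate 2 of both temperatures. The opposite held for 8 (18.6%, against 28.8% and 49.2%). The mean difference, 26 °C minus 20 °C, was −8.53 percentage points, with −27.9 in lin-35, −5.81 in lin-37 and 8.14 in wild type. Over all regions the means were 64.4% at 26 °C and 57.7% at 20 °C. The mean difference was −22.1 with equal peak numbers in all 16 lists, where the rule chose 92 regions. It was 4.06 in the 3-list set without lin-15B 20 °C replicate 1.

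**Figure D4:**
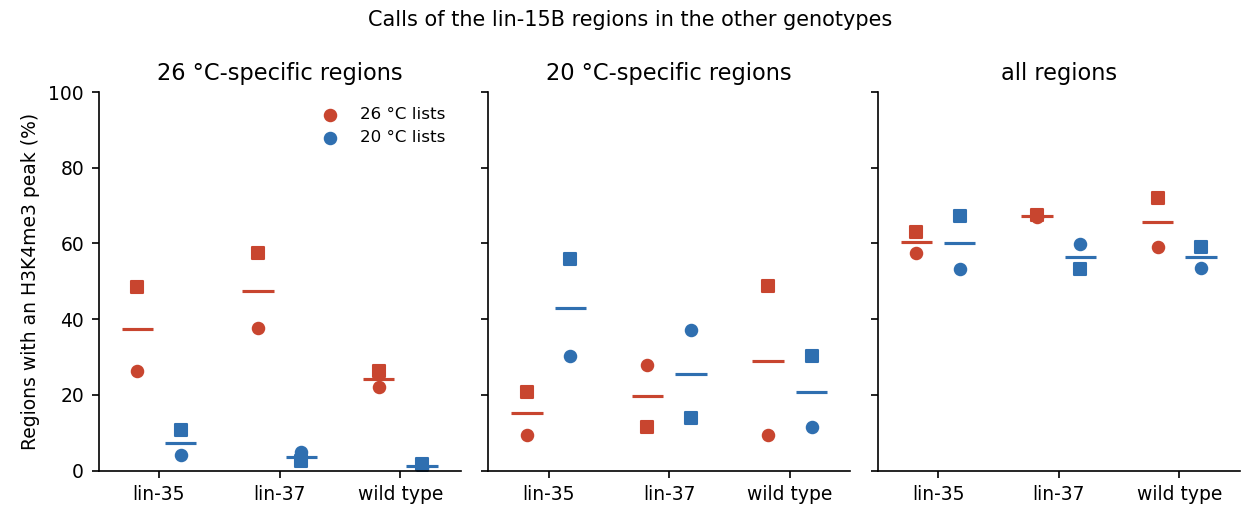
Share of the 26 °C-specific, 20 °C-specific and all lin-15B regions (y axis, %) with an H3K4me3 peak in each list of the other 3 genotypes. Red points are 26 °C lists and blue points 20 °C lists, squares are lists with the common code, circles the other lists and bars are means of 2; for the 26 °C-specific regions the red points lie at 22.1% to 57.4% and the blue points at 0.82% to 10.7%.

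The 26 °C-specific regions with and without H3K9me2 in wild type were set side by side in the other genotypes. The lin-35 lists called on average 38.9% of the 54 regions with H3K9me2 in all 4 wild-type lists at 26 °C, against 5.56% at 20 °C, and 32.8% of the 32 regions with it in none at 26 °C, against 17.2% at 20 °C. The lin-37 lists called 53.7% of the 54 at 26 °C, against 2.78% at 20 °C, and 28.1% of the 32 at 26 °C, against 7.81% at 20 °C. The wild-type lists called 21.3% of the 54 at 26 °C, against 0.926% at 20 °C, and 21.9% of the 32 at 26 °C, against 1.56% at 20 °C. Over all 1718 regions with H3K9me2 in all 4 wild-type lists the means were 65.8% at 26 °C and 61.5% at 20 °C in lin-35, 72.0% and 58.0% in lin-37, and 62.7% and 52.4% in wild type. Over all 6045 regions with it in none they were 57.6% at 26 °C and 59.1% at 20 °C in lin-35, 65.0% and 55.9% in lin-37, and 66.3% and 57.4% in wild type. The 2 lists of each temperature stood apart for both sets of members except for the 32 in lin-35, where they overlapped, with 12.5% and 53.1% at 26 °C against 25.0% and 9.38% at 20 °C. Arms held 98.1% of the 54 regions and 53.1% of the 32, so the sets differed in position as well as in H3K9me2. They were not compared within arms, so H3K9me2 and position on an arm are not separated here.

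Individual regions make the pattern concrete. Coordinates are on genome build ce10, and no gene names were assigned because an annotation of that build was not used here. The highest-ranking 26 °C-specific region, chromosome II 1934819 to 1935485, had a fold of 11.3 and 8.66 in 26 °C replicates 1 and 2 of lin-15B. All 6 lists of the other genotypes at 26 °C called it, with folds of 4.07 and 2.52 in lin-35, 5.99 and 5.68 in lin-37, and 2.44 and 3.57 in wild type, and 0 of 6 lists at 20 °C did. The region on chromosome I 3733433 to 3734467 had a fold of 9.26 and 7.83 in lin-15B, was called in 6 of 6 other lists at 26 °C and 0 of 6 at 20 °C, and had no H3K9me2 peak in lin-15B. In wild type it had H3K9me2 in both 20 °C lists and in neither 26 °C list. On chromosome II 14069274 to 14069872 the fold was 7.1 and 5.24 in lin-15B, with the same 6 of 6 and 0 of 6 and the same H3K9me2 calls. These arm regions were called at 26 °C in every genotype and in no list at 20 °C. In the other genotypes, 6 of 6 lists at 26 °C and 0 of 6 at 20 °C called 10 of the 122 (8.2%). Over all regions, whatever their calls in lin-15B, that share was 0.478%.

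A pair of regions combined that call pattern with stable H3K9me2. Chromosome III 10875392 to 10876020 had a fold of 10.2 and 5.75 in lin-15B at 26 °C, and chromosome III 3653035 to 3654117 had 5.89 and 5.26. Both were called in all 6 other lists at 26 °C and in 0 of 6 at 20 °C, and both overlapped H3K9me2 in all 4 lin-15B and all 4 wild-type lists. At the second of these, folds at 26 °C were 5.12 and 18.4 in lin-35 and 18.2 and 7.8 in lin-37, and 4.24 and 5.9 in wild type. H3K9me2 peaks were thus called at these sites at both temperatures while H3K4me3 peaks were called at 26 °C alone.

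Other high-ranking regions were called mainly in the mutants. Chromosome I 3030174 to 3030990 had a fold of 10.2 and 7.03 in lin-15B at 26 °C. Both lin-35 and both lin-37 lists at 26 °C called it, with folds of 7.27, 9.77, 11.6 and 5.88, and 0 wild-type lists did. Chromosome II 6977440 to 6978033, in an autosome centre, had a fold of 8.33 and 4.85 in lin-15B and 4.88, 10.3, 15.3 and 6.43 in the 26 °C lists of lin-35 and lin-37, again with 0 wild-type lists. Chromosome I 2999796 to 3000804 had a fold of 7.87 and 3.36 in lin-15B, H3K9me2 in all 8 lists, and calls in 5 of 6 other lists at 26 °C, 1 of them wild type, and in 0 of 6 at 20 °C. Absence of a wild-type peak says that none was called and does not show that the mark was absent.

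Some members were called in few other lists, and some were called at both temperatures elsewhere. Chromosome II 2111611 to 2112153 had a fold of 9.72 and 4.39 in lin-15B and was called in 1 of 6 other lists at 26 °C and 0 of 6 at 20 °C. Chromosome I 2081129 to 2081854 had 9.1 and 3.34, the same calls, and H3K9me2 in all 8 lists. Chromosome II 14280046 to 14280424 had 9.72 and 6.02 in lin-15B and was called in 4 of 6 other lists at 26 °C and 3 of 6 at 20 °C. At chromosome I 13265615 to 13266186, with folds of 8.46 and 6.85 in lin-15B, all 6 other lists at 26 °C and 1 at 20 °C, from wild type, held a peak. The highest fold percentiles in lin-15B therefore included regions called in every genotype, in the mutants alone and in few other lists.

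The 5 widest 26 °C-specific regions differed in fold. They include chromosome I 3733433 to 3734467 (1035 bp) and chromosome III 3653035 to 3654117 (1083 bp), with folds of 5.26 to 9.26, while the other 3 had folds of 2.18 to 4.78. The widest was chromosome II 11759494 to 11761824, with 2331 bp and folds of 2.56 and 2.3 in lin-15B at 26 °C. Next to it lay chromosome II 11758378 to 11759425, with 1048 bp and folds of 3.52 and 2.18, and beyond that chromosome II 11757665 to 11758326, with 662 bp and folds of 3.85 and 1.66, so that 3 members stood in a row; the last of these falls outside the rule for named regions and was added after its values were seen. The second of these was called in 6 of 6 other lists at 26 °C and 1 of 6 at 20 °C, and the first in 3 of 6 at 26 °C and 2 of 6 at 20 °C. Chromosome V 15571334 to 15572657, with 1324 bp and folds of 4.78 and 2.87, was called at 26 °C in both lin-37 lists and in no other list of the other genotypes.

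Named 20 °C-specific regions were weaker and less tied to temperature in the other genotypes. Chromosome III 11836338 to 11836783 had the highest rank, with a fold of 4.56 and 5.64 in 20 °C replicates 1 and 2, and was called in 3 of 6 other lists at 26 °C and 4 of 6 at 20 °C. Chromosome X 10132121 to 10132620 had 4.42 and 4.15 in lin-15B at 20 °C, with calls in 2 of 6 other lists at 26 °C and 4 of 6 at 20 °C. Chromosome II 6926197 to 6927386, the widest at 1190 bp, had 2.54 and 4.88 and was called in 5 of 6 other lists at each temperature. Chromosome X 3025075 to 3026005, with 931 bp and folds of 2.34 and 2.16, was called at 20 °C in both lin-35 and both lin-37 lists, and at 26 °C in 1 wild-type list. It was the one member for which the 20 °C rule was met in 2 other genotypes.

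Among further 20 °C-specific regions, chromosome III 12472624 to 12472967 ran against its class, with calls in 5 of 6 other lists at 26 °C and 1 of 6 at 20 °C beside folds of 3.42 and 2.69 in lin-15B at 20 °C. Chromosome X 15259594 to 15260215 (2.9 and 3.66) was called in 0 of 6 at 26 °C and 1 of 6 at 20 °C. Chromosome X 2745574 to 2745979 (2.78 and 3.63) had both lists of lin-35 and of lin-37 at both temperatures and H3K9me2 in all 8 lists. On chromosome II, 15184954 to 15185417 (3.42 and 2.8) was called in 1 of 6 at 26 °C and 2 of 6 at 20 °C, and 13623901 to 13624451 (3.4 and 2.55) in 3 of 6 at each temperature. These calls gave no common pattern. The other wide members were chromosome II 10707305 to 10708162 (858 bp, called in 0 of 6 at 26 °C and 3 of 6 at 20 °C), chromosome X 10594700 to 10595530 (831 bp, 1 of 6 at 26 °C and 3 of 6 at 20 °C) and chromosome III 10518659 to 10519484 (826 bp, 0 of 6 at 26 °C and 3 of 6 at 20 °C). All 3 wide regions were called in more 20 °C than 26 °C lists.

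The size of the temperature-specific classes differed between genotypes when the rule was applied to each genotype's own regions. The 26 °C-specific class held 1.36% of regions in lin-15B, 2.85% in lin-35, 9.42% in lin-37 and 5.77% in wild type, and the 20 °C-specific class held 0.478%, 2.4%, 1.38% and 0.345% in the same genotypes. Of the 26 °C-specific regions, 85.2% lay on arms in lin-15B, 72.4% in lin-35, 58.3% in lin-37 and 56.0% in wild type, against 43.8% to 46.3% of all regions. Wild-type H3K9me2 overlapped a mean of 60.5% of them in lin-15B, 49.4% in lin-35, 35% in lin-37 and 31.6% in wild type, against 25.6%, 26.6%, 25.0% and 23.5% of all regions in the same genotypes. The arm share was above that of all regions in every genotype. Differences between genotypes in these shares were not tested, and the lists of each genotype differ in length.

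Among the 4195 regions called in all 4 lin-15B lists, width separated the temperatures at few. Both 26 °C lists were wider than both 20 °C lists at 191 (4.55%) and narrower at 118 (2.81%). The wider regions lay on arms in 80.6% and on X in 3.66%, and the narrower ones on arms in 47.5% and on X in 20.3%, against 45.4% and 12.8% of all shared regions. Wild-type H3K9me2 overlapped a mean of 59.6% of the wider regions and 33.3% of the narrower, against 26.8% to 34.8% of all 4195 shared regions over the 4 lists. The narrower regions thus lay within the range of all shared regions in this respect. With a list left out the counts followed list length: 1371 regions were wider without 26 °C replicate 1, 303 without 20 °C replicate 1 and 2838 without 20 °C replicate 2, and 1384 were narrower without 26 °C replicate 2 and 3210 without 20 °C replicate 1.

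The largest widening was at chromosome I 2043434 to 2045439, with peaks of 1812 and 2006 bp at 26 °C against 450 and 672 bp at 20 °C. Chromosome IV 2019517 to 2021144 had 1333 and 1628 bp at 26 °C against 501 and 760 bp at 20 °C. In the other direction, chromosome X 1319489 to 1321273 had 419 and 856 bp at 26 °C against 1210 and 1785 bp at 20 °C. Chromosome I 12651310 to 12654207 had 1977 and 2335 bp at 26 °C against 2729 and 2856 bp at 20 °C. The gap between the temperatures was 1140, 573, 354 and 394 bp in the same regions, wider than the gap between replicates at all but the X region, where replicates differed by more.

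Rank by fold, taken over the same 4195 regions in each list so that list length does not enter, showed a difference on X. Both 26 °C ranks were above both 20 °C ranks at 965 regions (23%) and below them at 944 (22.5%). With any 1 list left out these counts were 1531 to 1716 higher and 1566 to 1846 lower. On X, 42 of 538 regions (7.81%) ranked higher at 26 °C and 238 (44.2%) ranked lower. The median rank of X regions was the 33.7th and 33.9th percentile at 26 °C, against the 38.5th and 40.4th at 20 °C. The arms went the other way, with 28.5% of 1906 regions higher and 15.8% lower, and the centres had 21.7% of 1751 higher and 23.1% lower. Ranks run over a fixed set of regions, so lower ranks on X must be offset by higher ranks elsewhere. The shifts on X and on arms are therefore not independent. With any 1 list left out the X shares were 14.6% to 17.7% ranked higher and 57.4% to 61.6% ranked lower. Leaving out a list relaxes the comparison of ranks, so that both shares can rise whichever list is dropped. Lower ranks stayed more frequent than higher ranks on X in each case.

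The order on X was the same in the other genotypes' own shared regions. In lin-35, 10.3% of 572 X regions ranked higher at 26 °C and 37% lower; in lin-37 the shares were 14.5% and 35% of 588, and in wild type 10.9% and 28.0% of 622. The median rank of X regions was lower in both 26 °C lists than in both 20 °C lists in wild type and lin-35 as in lin-15B, and overlapped in lin-37. X thus held fewer 26 °C-specific regions, more 20 °C-specific regions and lower ranks at 26 °C in lin-15B. By the same rule on their own regions, X held 4.74% of the 26 °C-specific and 32.8% of the 20 °C-specific regions in lin-35. In lin-37 these shares were 9.84% and 25.0%, and in wild type 10.2% and 11.1%, against 15.2% to 15.6% of all regions. The placement on X in lin-15B was therefore shared with lin-35 and lin-37, and in wild type for the 26 °C-specific regions only.

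**Figure D5:**
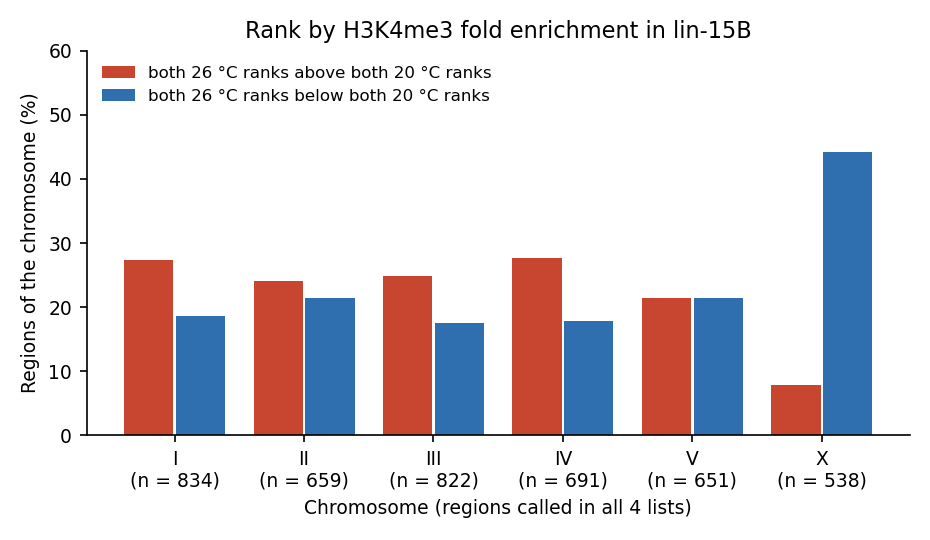
Share of the regions called in all 4 lin-15B lists (y axis, %) whose rank by fold enrichment was higher (red) or lower (blue) in both 26 °C lists than in both 20 °C lists, by chromosome. On X 7.81% ranked higher and 44.2% lower, and no autosome has a higher share of lower ranks than 21.5%.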

How the data were processed

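The submitters' processing notes name Bowtie 1.1.2, MACS2 and the genome build ce10; the MACS2 version is not given in the sources used here. Per the file headers and peak names, each library has its own list. The H3K4me3 lists were called at a q cutoff of 0.01 with an extension size of 250 bp. The H3K9me2 lists used here were called at 0.01, except lin-15B at 20 °C replicate 1, called at 0.05. The deposited H3K4me3 lists give each peak's fold enrichment ratio and the −log10 p and −log10 q at its summit, all computed by the authors. For H3K9me2 the deposited lists hold score columns whose meaning could not be settled, used only to rank peaks within a list. The lists carry no read counts, so depth is unknown; a missing peak means that no peak was called.

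Sub-peaks with the same start and end were collapsed. Peaks of the 4 lin-15B lists were merged where they overlapped by at least 1 bp, and a region was called in a list, or overlapped H3K9me2, at 1 bp or more. Chromosome length was the highest peak end. The merging and calling were tested on simulated peak lists. Per-library values were compared by an exact permutation test; members are described by counts and shares beside all regions, with no test. Named regions are those with the highest mean fold percentile, the largest width, H3K9me2 in all lin-15B lists, the same rule met in at least 2 other genotypes, and the largest width differences. The rule, the members and the lists of alternatives were chosen with earlier results of these data known. Replicate numbers are not said to mark a shared culture. Planned counts of heat shock and germline genes were not run, since an annotation of ce10 was not used here. H3K9me2 of lin-35 and lin-37, H3K27me3, H3K36me3 and inputs were not analysed here. Python 3.11.15, numpy 2.4.6, pandas 2.3.3 and matplotlib 3.10.9 were used. Alternatives were stricter q, equal peak numbers, larger overlaps, 1 kb bins, other arm limits, a replicate block and each list left out. Leaving out lists for placement, H3K9me2 overlap, X ranks and calls in other genotypes, the equal-number and q settings for placement, the arms-only overlap, and the split by the common code were chosen after seeing the data.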

Additional observations from a re-analysis of the deposited data

How the results depend on the processing

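Of 155 alternatives, 88 were counted as unchanged, 59 moved the value and 8 turned its direction. Unchanged meant within 1.5 times for counts, and within the spread of lists or genotypes or a binomial interval over regions for shares. Per-library differences counted as unchanged whenever their direction held, since their tests allow no p below 0.333. The difference in peaks was thus counted as unchanged when it went from −26.5 to −1468.0 without 20 °C replicate 1. Where a value moved, the cause was not tested beyond what the alternative's own construction shows. Cutting each list to 5529 peaks gave 200 regions specific to 26 °C and 89 specific to 20 °C, with 77.5% of the first on arms, and 1 kb bins gave 81 specific to 20 °C. Arms of the outer 25% held 77.0% of the 26 °C-specific regions. A width difference of at least 200 bp left 25 wider and 4 narrower regions. H3K9me2 at 26 °C-specific regions was 36.9% (200 bp of overlap), 33.0% (at least 50% of the region) and 52.2% (arms only) in lin-15B and 51.6%, 49.4% and 69.2% in wild type; at 20 °C-specific regions it was 25.6% in lin-15B and 20.9% in wild type with 50% of the region, and 46.2% in wild type on arms.

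With the replicate number as a block, replicate 1 alone gave 928 regions called only at 26 °C and 504 only at 20 °C, and replicate 2 alone 755 and 1281. Calls of same-numbered lists deviated together (correlation 0.26), as a hint from the data and not the design. The blocked p of peak number was 1.0, and 0.5 is the smallest that 2 pairs allow.

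Leaving out each list in turn gave 123 to 897 regions specific to 26 °C and 44 to 1257 specific to 20 °C. The difference in peaks ranged over −1468.0 to 1415.0 (it turned to 1040.5 without 26 °C replicate 1 and 1415.0 without 20 °C replicate 2), in covered length over −2.19 to 2.0 Mb (1.38 and 2.0 without the same lists), in median width over −67.0 to 98.0 bp (−27.5 without 26 °C replicate 2, −67.0 without 20 °C replicate 1), in arm share over −0.155 to 2.83 points (−0.155 without 20 °C replicate 2) and in X share over −3.55 to −0.423. Wider regions numbered 240 to 2838 and narrower 130 to 3210; higher ranks 1531 to 1716 and lower 1566 to 1846, on X 14.6% to 17.7% and 57.4% to 61.6%. Arm share of 26 °C-specific regions was 56.3% to 85.4% and X share of 20 °C-specific regions 20.2% to 27.3%. H3K9me2 at 26 °C-specific regions was 24.7% to 45.1% in lin-15B and 29.3% to 60.0% in wild type, and at 20 °C-specific regions 17.9% to 36.9% and 15.5% to 28.7%. The difference in calls in other genotypes was 16.8 to 31.6 points for 26 °C-specific and −8.33 to 4.06 for 20 °C-specific regions (4.06 without 20 °C replicate 1).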
